A study of Rattus norvegicus with 23 samples.

Results

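The livers of rat daughters whose dams had inhaled ozone were compared with those of daughters of dams kept in filtered air. Of the 23 liver libraries of the series, 12 came from female offspring and were chosen by the labels: 6 carry the label Maternal Ozone (rats 51, 52, 55, 56, 57 and 59) and 6 the label Maternal Air (rats 2, 4, 6, 10, 11 and 12). Dams of the ozone group inhaled 0.8 ppm ozone on gestation days 5 and 6, dams of the air group filtered air (0 ppm), and livers were taken at about postnatal day 48. The labels give no genotype or strain for these animals. Poly(A) RNA was sequenced, and the values are estimated counts per gene. The remaining 11 libraries, from 6 air and 5 ozone sons, entered the shared model and serve as a set of other animals, which may include littermates of the daughters.

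The days of exposure fall at implantation in the rat, when the blastocyst attaches to the uterine wall and before the liver of the embryo exists. The adolescent rat liver differs between the sexes over much of its transcriptome, a difference kept up by the sex-specific pattern of growth hormone release from the pituitary. Genes higher in one sex include many for steroid, drug and lipid metabolism.

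The deposited table lists 18056 Ensembl identifiers without gene names, and the RefSeq gene table at hand carries no Ensembl identifiers to match them to, so genes are described by identifier and by groups defined in the sons. For the same reason the liver label could not be checked against hepatocyte markers, and lists of pathway genes and of other cell types were not tested. Total counts of the daughters' libraries ranged from 8000498 to 15594817 in air and from 10184864 to 13596065 in ozone daughters. Library names come in 2 styles, treated as a technical batch. Style 1 holds 5 air and 1 ozone daughter and style 2 holds 1 air and 5 ozone daughters, so the style is nearly aligned with the exposure and was a term of the model. The labels' treatment text also describes episodic ozone inhalation by some rats that it does not name; the names of all 23 libraries carry 0 ppm ozone, those of the ozone daughters included. No label ties offspring to dams, so a shared litter cannot be told apart from the maternal exposure, and p-values treat each animal as independent.

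Among the daughters, ozone replicate 4 stood apart from the other ozone livers. For each daughter, genes were counted that lay at least 2-fold above the highest, or at least 2-fold below the lowest, of 5 air daughters (for an ozone daughter, the mean over the 6 ways of choosing 5 of the 6 air animals). Ozone replicate 4 had 230.0 such genes above and 229.3 below. In ozone replicate 5 the numbers were 79.5 and 33.8, and in ozone replicates 1, 2 and 3 they were 38.0 and 64.2, 25.3 and 69.7, and 38.2 and 39.3. Ozone replicate 6 had 10.5 above and 23.5 below, fewer above than any air daughter. Air daughters had 12 to 25 above and 17 to 64 below. Ozone replicates 1, 2 and 3 were thus near the range of the air daughters, ozone replicate 5 was above it in the first number, and ozone replicate 4 was far above it in both.

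**Figure D1:**
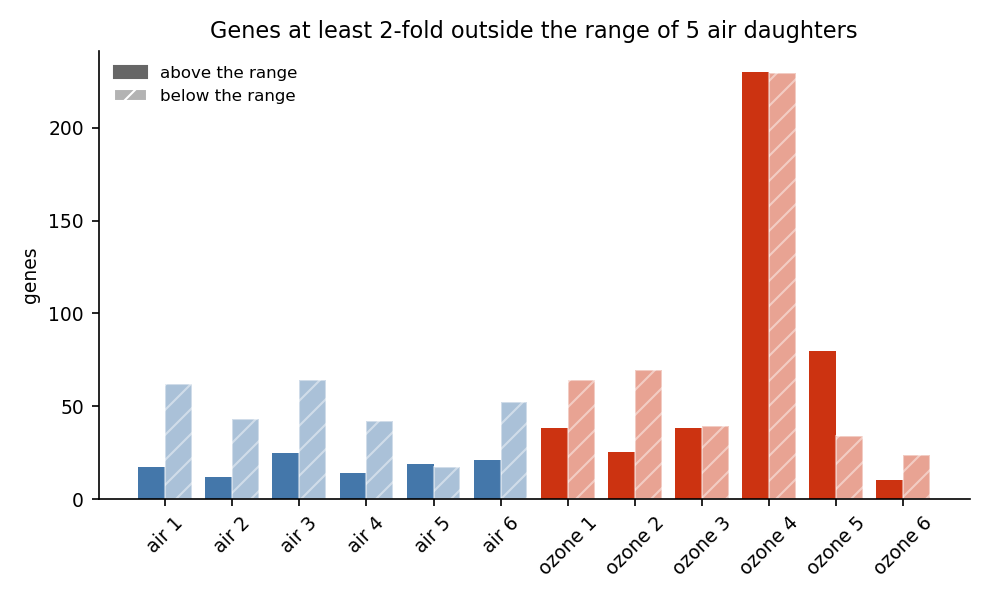
Bars give, for each of the 12 daughters (x axis: group and replicate), the number of genes at least 2-fold above (solid) or below (hatched) the range of 5 air daughters. Ozone replicate 4 has 230.0 and 229.3 genes, against at most 25 and 64 in any air daughter.

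The first question was whether any gene differed between ozone and air daughters over all animals. None did by the main test: 0 of 12792 genes passed an adjusted p of 0.05 (0%; edgeR quasi-likelihood test, Benjamini-Hochberg adjustment, n = 6 and 6), and the smallest adjusted p was 0.455. The number stayed at 0 with any single daughter left out. At an unadjusted p below 0.05, 798 genes (6.24%) were higher and 495 (3.87%) lower in ozone daughters, with median log2 differences of 0.56 and −0.45. Of the 12792 genes, 145 had a fitted difference of at least 2-fold upward and 54 of at least 2-fold downward. No gene was on in 1 group and off in the other: 0 genes had at least 1 CPM in every daughter of a group and at most 3 counts summed over the other. The median over all genes was 0.01 on the log2 scale, a value that the TMM scaling sets close to 0.

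The numbers at the unadjusted threshold rested on single animals and on the fit. Higher genes outnumbered lower ones in the shared model. With daughters fitted alone with the style term, 384 were higher and 405 lower (3.16% and 3.34% of 12142 genes). Without the style term 935 were higher and 651 lower. In the shared model the number of lower genes was 315 without air replicate 1 and 278 without air replicate 2. It was 323 without ozone replicate 4 and 944 without ozone replicate 6. The number of higher genes was 470 without air replicate 2 and 466 without ozone replicate 4. DESeq2 with the same design called 4 genes, all higher in ozone daughters. Only 1 of the 4 had whole counts in every library, and 1 was below 1 CPM in every daughter; their adjusted p by edgeR lay between 0.455 and 0.86.

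The absence of calls leaves a bounded range for most genes. The 95% interval of the log2 difference lay within a 2-fold change in either direction for 10130 genes (79.2%), and within a 1.5-fold change for 5506 (43.0%). The median standard error was 0.20 on the log2 scale with the style term and 0.18 without it. Counts were also simulated for the same 12792 genes and this comparison, with 200 genes changed in ozone daughters. The test called 23.9% of genes changed 1.5-fold, 70.1% of those changed 2-fold and 98.5% of those changed 4-fold. Of its 138 calls, 10 were unchanged genes. The simulated counts had no effect of sex, style or litter and no outlying animal. These rates therefore do not give the share of changed genes that the test missed in the real livers.

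Genes of different abundance and variability were compared by dividing the tested genes into 3 equal groups of 4264 from the sons alone. The share at an unadjusted p below 0.05 was 7.36% in the group of lowest abundance (median 2.15 CPM in sons), 10% in the middle group and 12.9% in that of highest abundance (median 51.4 CPM), against 10.1% of all genes. From lowest to highest abundance, the median biological coefficient of variation among sons was 0.253, 0.175 and 0.165. The median absolute log2 difference in daughters was 0.256, 0.172 and 0.161. The cause of the rising share was not tested. Among the genes that varied most between sons of the same group, 318 were higher and 107 lower in ozone daughters; among those that varied least, 190 and 174. These numbers are from the shared model, in which higher genes are the more numerous over all genes as well, and the difference between the 2 groups was not tested.

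Groups that do not overlap at all were rare. In 23 genes every ozone daughter lay above every air daughter (0.18% of genes tested), and in another 23 every ozone daughter lay below (0.18%). The genes of the first group averaged 0.508 to 109 CPM over daughters, with a median log2 difference of 0.61. Those of the second averaged 1.08 to 39.9 CPM, with a median of −0.42. These genes were picked by the values of the daughters. Sons are other animals, but their differences come from the same fit, with a style term shared by both sexes. The median ozone difference in sons was −0.16 for the first 23 genes, of which 15 were lower in ozone sons. For the second 23 it was 0.22, and 20 were higher in ozone sons. Over all genes tested it was −0.01, close to 0, so genes lower and higher in ozone sons were nearly balanced. The counts are a description, not a separate test.

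A rule set for identifiers without names took the 2 higher and the 2 lower genes with the smallest p, among genes with a mean of at least 1 CPM in air or in ozone daughters and whole counts in every library. ENSRNOG00000016980 was at 70.6, 48.5, 89.9, 93.5, 88.9 and 71.2 CPM in air daughters 1 to 6 and at 99.2, 134, 90.3, 143, 127 and 78.6 CPM in ozone daughters 1 to 6. Ozone replicates 1, 2, 4 and 5 lay above all air daughters, and ozone replicates 3 and 6 within their range. The means were 77.1 ± 17.1 and 112 ± 26.1 CPM (SD, n = 6 and 6), and the fitted log2 difference was 0.82 with an SE of 0.17 (adjusted p = 0.455, edgeR). By DESeq2 its adjusted p was 0.0252, a call that edgeR did not make. The difference was 0.70 in style 1 (1 ozone against 5 air daughters) and 1.11 in style 2 (5 against 1), and 0.54 without the style term, over 1.5 times smaller than in the main fit.

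ENSRNOG00000060448 was a gene of low abundance, with 6 to 13 counts per library in air daughters and 15 to 25 in ozone daughters. It met the minimum level only through the ozone daughters, the group in which it is high, so its difference is given as a description. Its level was 0.489, 0.474, 1.22, 0.713, 0.831 and 0.681 CPM in air daughters 1 to 6, and 2.17, 1.82, 1.92, 1.67, 1.35 and 1.11 CPM in ozone daughters 1 to 6. Only ozone replicate 6 fell within the air range, which reached up to air replicate 3. The means were 0.735 ± 0.276 and 1.67 ± 0.387 CPM, a fitted 2.45-fold difference (log2 difference 1.30, SE 0.28, edgeR adjusted p = 0.455, n = 6 and 6). Within style 1 the log2 difference was 1.09 and within style 2 it was 1.46.

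ENSRNOG00000024322 was lower in every ozone daughter than in every air daughter. Air daughters 1 to 6 had 37.4, 46.2, 36.1, 42.7, 35 and 35 CPM, and ozone daughters 1 to 6 had 24.6, 28.1, 25.1, 19.7, 20.8 and 34.1 CPM. Ozone replicate 6 came within 1 CPM of the lowest air liver, while the other ozone livers lay further down. The log2 difference was −0.70 with an SE of 0.17 (means 38.7 ± 4.66 and 25.4 ± 5.25 CPM, edgeR adjusted p = 0.492, n = 6 and 6), and it was −0.40 within style 1 and −0.92 within style 2.

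ENSRNOG00000020058 had 1.26, 3.87, 1.1, 1.53, 2.17 and 1.51 CPM in air daughters 1 to 6 and 1.65, 1.18, 1.55, 1.46, 1.19 and 1.85 CPM in ozone daughters 1 to 6. The groups overlapped throughout, and the highest value was that of air replicate 2, the only air daughter of style 2. The fitted log2 difference of −0.87 (SE 0.22, adjusted p = 0.492, edgeR) therefore leaned on the style term: it was −0.38 without the term, −0.29 within style 1 and −1.25 within style 2, where 5 ozone daughters were set against this 1 animal.

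In sons the fitted ozone difference of each of the 4 genes had the sign opposite to that in daughters. This is not particular to the 4 genes. Of the 798 genes higher in daughters at an unadjusted p below 0.05 (edgeR), 90.4% were lower in ozone sons. Of the 495 lower in daughters, 88.9% were higher in ozone sons, all in the fit that shares the style term. The median log2 difference in sons was −0.42 for the 798 genes and 0.33 for the 495, against −0.01 over all genes tested. ENSRNOG00000016980 ranged from 73.7 to 124 CPM in air sons and from 79.1 to 121 CPM in ozone sons (log2 difference −0.22, adjusted p = 0.335). ENSRNOG00000060448 ranged from 1.33 to 2.34 and from 1.23 to 1.73 CPM (−0.33, adjusted p = 0.352). Their levels in ozone daughters thus overlapped those of the sons. For ENSRNOG00000016980 air daughters, at 48.5 to 93.5 CPM, overlapped the sons as well. For ENSRNOG00000060448 air daughters reached up to 1.22 CPM, just below the lowest son. ENSRNOG00000024322 rose in ozone sons, from 24.6 ± 7.38 to 37.8 ± 5.55 CPM (log2 0.66, adjusted p = 0.0185, n = 6 and 5, edgeR), and ENSRNOG00000020058 rose from 1.17 ± 0.355 to 2.12 ± 0.598 CPM (log2 1.12, adjusted p = 0.00717, edgeR).

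The ozone difference itself was tested between daughters and sons by the interaction term. Daughters minus sons it was 1.04 for ENSRNOG00000016980, 1.63 for ENSRNOG00000060448 and −1.36 for ENSRNOG00000024322 (edgeR adjusted p = 0.0306 for each of the 3). For ENSRNOG00000020058 it was −1.99 (edgeR adjusted p = 0.0238). Over all genes 10.6% passed this test, so a call is not rare. Without air daughter 2 the differences were 0.88, 1.45, −1.29 and −1.66 in the same order, somewhat smaller, and all 4 calls were lost (edgeR adjusted p of 0.0876, 0.0839, 0.0741 and 0.0741). The calls were also lost in fits of either style alone (adjusted p from 0.276 to 0.397), with differences of the same sign. That of ENSRNOG00000016980 was also lost without the style term (adjusted p = 0.0569). The genes had been picked for their daughters' values, which also enter the interaction, so these values describe the picked genes and are no separate test of them.

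**Figure D2:**
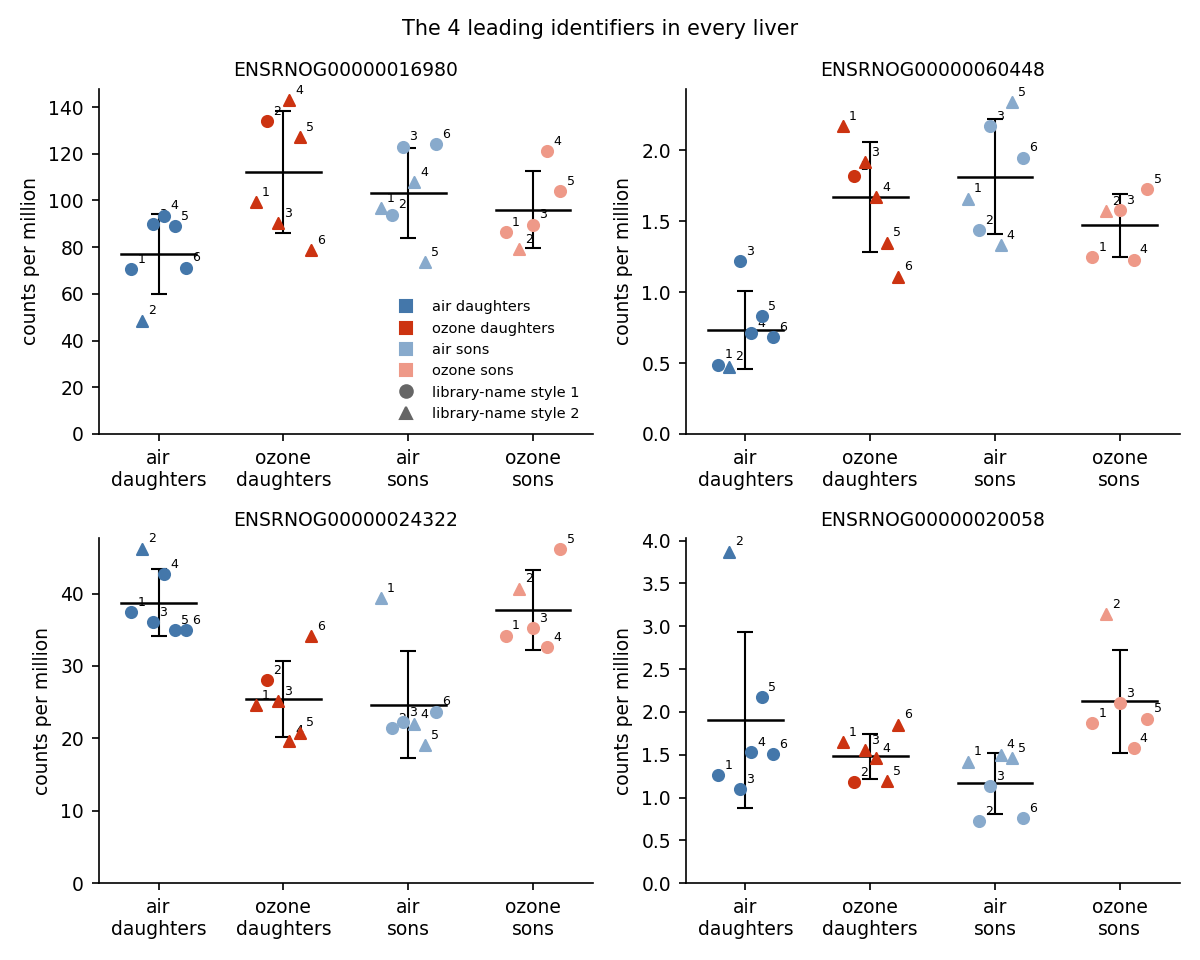
Each panel shows 1 identifier, with CPM on the y axis and the 4 groups on the x axis; each symbol is 1 liver, numbered by replicate, circles and triangles are library-name styles 1 and 2, and black lines are the mean and SD. ENSRNOG00000024322 separates air and ozone daughters without overlap, while ENSRNOG00000020058 overlaps and has its highest daughter in air replicate 2.

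A second question was how genes that changed with maternal ozone in sons behaved in daughters. In ozone sons 926 genes rose (7.24% of genes tested) and 735 fell (5.75%; edgeR adjusted p below 0.05). Sons and daughters are different animals, but both differences come from the same fit, with a style term shared by both sexes. The values in daughters are therefore not independent of the lists. In ozone daughters the genes that rose in sons had a median log2 difference of −0.20 (quartiles −0.31 to −0.08), and 808 of the 926 (87.3%) were lower, against 48.7% of all genes tested. The genes that fell in sons had a median of 0.29 (quartiles 0.15 to 0.46) in daughters, and 684 of the 735 (93.1%) were higher, against 51.3% of all genes. Both lists thus lay, in daughters, on the side opposite to that in sons. With the lists limited to an adjusted p below 0.01 in sons, the 77 genes that rose had a median of −0.07 in daughters and 55.8% were lower, near the background of 48.7%, whereas the 23 that fell had a median of 0.29 and 91.3% were higher.

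**Figure D3:**
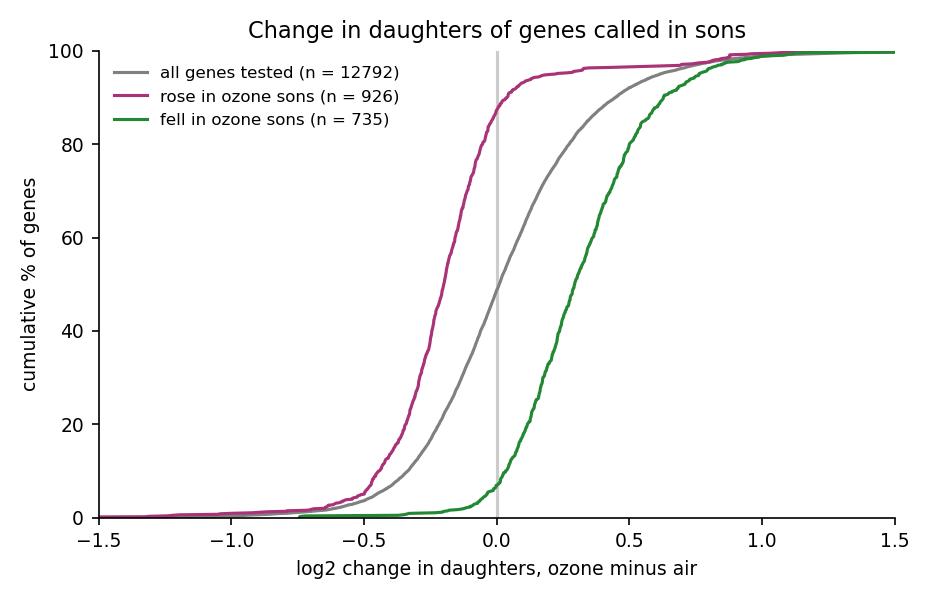
Cumulative percentage of genes (y axis) against the log2 difference between ozone and air daughters (x axis), for all 12792 genes tested, the 926 that rose and the 735 that fell in ozone sons. The median of the genes that rose in sons is −0.20 and that of the genes that fell is 0.29; the curve of all genes crosses its middle at 0.01.

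Single genes of these lists were seldom clear in daughters. Of the 926 genes that rose in sons, 102 were lower in ozone daughters at an unadjusted p below 0.05 (11%, against 3.87% of all genes) and 14 higher (1.51%, against 6.24%). Those 102 make up 20.6% of the 495 genes lower in daughters. Of the 735 that fell in sons, 195 were higher (26.5%, against 6.24%) and 1 lower; the 195 are 24.4% of the 798 genes higher in daughters. None of either list passed the adjusted threshold in daughters (0 of 926 and 0 of 735, edgeR).

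The pattern was compared between fits that treat style differently. Style 2 makes up the larger share of ozone livers among daughters and the smaller share among sons. With a style term shared by both sexes, or with none, style cannot be fully told apart from opposite ozone differences in the sexes. Its part was not tested. With sons and daughters fitted separately nothing is shared, and the medians were −0.15 and 0.25; 76.4% of the genes that rose in sons were lower in daughters and 82.5% of those that fell were higher, against 50.9% and 49.1% of all genes. The numbers at an unadjusted p below 0.05 then came close to the background: 41 of 1133 (3.62%, against 3.34%) and 46 of 879 (5.23%, against 3.16%). Without any style term the medians were −0.19 and 0.30, with 183 of 1157 (15.8%, against 5.56%) and 377 of 975 (38.7%, against 9.22%). The list medians thus had the same sign in the 3 fits, while the numbers of single genes varied with the fit.

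Within the styles the pattern was uneven. In style 2, where 5 ozone daughters were set against air replicate 2, the genes that rose in sons had a median of −0.35 and those that fell 0.31. In style 1, where ozone replicate 2 was set against 5 air daughters, the medians were 0.02 and 0.16. These 2 within-style differences use different animals. Over all 12792 genes their correlation was 0.131, as a description across genes with no independent replicates, and 58.1% of genes had the same sign in both.

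Single daughters moved the numbers of genes more than the medians. The number lower in daughters among the genes that rose in sons was 62, 39 and 65 without air replicates 1, 2 and 5, 59, 54 and 66 without ozone replicates 3, 4 and 5, and 230 without ozone replicate 6. The number higher among those that fell in sons was 107 without air replicate 2, 95 without ozone replicate 4 and 301 without ozone replicate 6. As shares, the first numbers were 6.71%, 4.22%, 7.04%, 6.37%, 5.83%, 7.13% and 24.9%. In the same order, 2.47%, 2.18%, 2.87%, 2.81%, 2.53%, 2.87% and 7.41% of all genes were lower. The second numbers were 14.6%, 12.9% and 41%, against 3.69%, 3.65% and 9.33% of all genes. The share over all genes thus moved in the same direction. Without ozone replicate 4 the medians were −0.13 and 0.20, each about 1.5 times smaller. Leaving out single sons changed the lists themselves. Without ozone son 2, the only ozone son of library-name style 2, only 76 genes rose and 32 fell. Their medians in daughters were −0.09 and 0.29, and 59.2% and 87.5% lay on the opposite side.

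Each liver was then given a score, the mean log2 CPM of the genes that rose in sons minus that of the genes that fell in sons, with the mean of air daughters set to 0. In air daughters 1 to 6 it was 0.16, 0.08, −0.37, 0.20, 0.23 and −0.31. In ozone daughters 1 to 6 it was 0.04, −0.19, −0.73, −1.52, −0.79 and 0.33. Ozone replicates 3, 4 and 5 lay below all air daughters, ozone replicates 1 and 2 within their range, and ozone replicate 6 above it. Thus 3 ozone daughters were low and 3 were not.

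The mean score was −0.48 ± 0.67 in ozone daughters and 0 ± 0.27 by construction in air daughters (SD, n = 6 and 6). With any single daughter left out the difference of the means stayed negative, from −0.64 to −0.27; the smallest, without ozone replicate 4, was over 1.5 times smaller than over all animals. No test of the score was made. The genes were chosen by the difference between air and ozone sons, so the gap between these groups of sons was set in advance. Air sons ranged from −1.90 to −1.26, and ozone daughter 4 lay within that range. Ozone sons ranged from −1.05 to 0.13, and 4 of the 5 lay within the range of air daughters. The 3 low ozone daughters all belong to style 2. The other daughters of style 2, ozone replicates 1 and 6 and air replicate 2, were at 0.04, 0.33 and 0.08, and the part of style in the score was not tested.

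**Figure D4:**
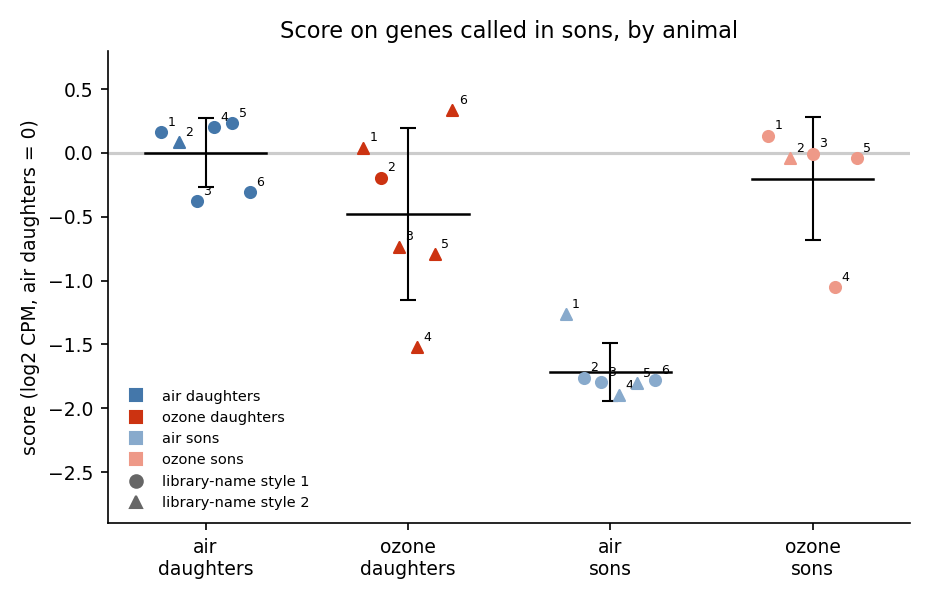
Score of each liver (y axis, in log2 CPM relative to the mean of air daughters) in the 4 groups (x axis); symbols are single livers numbered by replicate, circles and triangles are library-name styles 1 and 2, and black lines are the mean and SD. Ozone daughters 3, 4 and 5 lie below all air daughters, at −0.73, −1.52 and −0.79, while the other ozone daughters do not.

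A principal component analysis of the 12 daughters used all 12792 genes, those of the score included. Labels served only to set the sign of each component, so that ozone daughters had the higher mean. The same 3 ozone daughters were highest on component 1. Livers and genes are shared with the score, so this is no separate evidence. Component 1 held 32.4% of the variance. Air daughters 1 to 6 lay at −36.6, −19.0, 10.4, −19.8, −22.1 and 2.9, and ozone daughters 1 to 6 at −5.5, 0.6, 20.9, 62.7, 30.7 and −25.2. Again ozone replicates 3, 4 and 5 lay beyond all air daughters, and ozone replicate 6 lay among them. The difference of the means, 28.1, had a two-sided exact permutation p of 0.0779 and was not called (924 arrangements, smallest possible p 0.00216). Permuted within styles, with a style-adjusted difference of 24.7, the exact p was 0.278 (36 arrangements, smallest possible 0.0278). Without ozone replicate 6 the difference was 35.8 and the exact permutation p was 0.0216; without ozone replicate 4 they were 22.6 and 0.106.

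**Figure D5:**
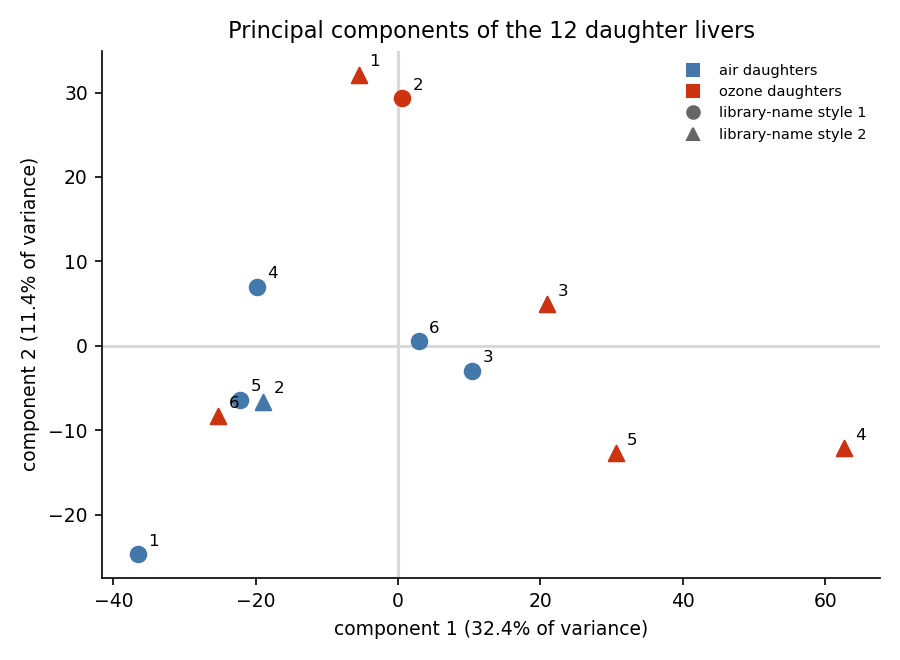
Components 1 (x axis, 32.4% of variance) and 2 (y axis, 11.4%) of the 12 daughter livers; blue symbols are air and red symbols ozone daughters, numbered by replicate, and circles and triangles are library-name styles 1 and 2. Ozone replicates 3, 4 and 5 lie to the right of all air daughters, and ozone replicates 1 and 2 lie apart on component 2.

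The axis on which daughters differed was also read in sons, who had no part in finding it. Placed on component 1 of the daughters and centred on their own mean, air sons 1 to 6 lay at 0.02, 11.5, 12.3, 23.0, 24.6 and 24.2, and ozone sons 1 to 5 at −31.7, −20.4, −30.4, 12.35 and −25.5. Ozone sons other than replicate 4 lay below all air sons. The difference of −35.1 passed the threshold (two-sided exact permutation p = 0.013, 462 arrangements, smallest possible 0.00216; within styles p = 0.0357, 140 arrangements), and its direction is opposite to that of the means of the daughters. With any single son left out the exact permutation p lay between 0.00476 and 0.0317. This test was chosen after the data were seen.

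The spread among ozone daughters was compared with that among air daughters. The root mean square log2 difference over genes averaged 0.56 over the 15 pairs of air daughters (0.50 to 0.64) and 0.63 over the 15 pairs of ozone daughters (0.53 to 0.86). The 36 pairs of 1 air and 1 ozone daughter averaged 0.62, no more than pairs of ozone daughters. The excess of 0.08 in ozone daughters was not called (exact permutation, two-sided, p = 0.305, 924 arrangements, smallest possible 0.00216), and without ozone replicate 4 it was 0.03, over 1.5 times smaller. Ozone replicate 6 was closer on average to the air daughters (0.51) than to the other ozone daughters (0.66). Ozone replicates 1 and 2 were slightly closer to the air daughters (0.59 and 0.58) than to their own group (0.62 and 0.62). These own-group means include the outlying ozone replicate 4, which averaged 0.72 to the other ozone daughters. Ozone replicates 3, 4 and 5 were closer to their own group. Among air daughters, replicate 3 was slightly closer to the ozone daughters (0.56) than to the other air daughters (0.57), and the other 5 were closer to their own group.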

How the data were processed

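Poly(A) RNA of 23 rat livers was measured; the comparison uses 12 daughters (6 air, 6 ozone). The authors deposited estimated counts per Ensembl gene identifier; per the submitters' processing notes they used STAR 2.6.1d, Partek and DESeq2 with genome build rn6. Annotation, strand and counting choices: not given in the sources used here. Of the values, 19.8% differ from a whole number by more than 1e-06, which happens where reads are divided between genes. The 13 highest values, all in 1 gene, carry only 3 significant digits.

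Rounded counts were fitted in edgeR 4.0.16 (R 4.3.3): filterByExpr left 12792 of 18056 genes with 99.91% of counts, TMM factors were 0.941 to 1.054, and a quasi-likelihood model had a mean for each of the 4 sex and exposure groups and a library-name style term (5 coefficients, 18 residual degrees of freedom). P-values were adjusted by Benjamini-Hochberg over all genes. SE is the log2 change divided by the square root of F. Log2 CPM used a prior count of 2; CPM values are scaled by TMM. The number of counts limits precision for genes of low abundance. The model was tested on simulated counts; with no change put in, 0 genes passed, and the unadjusted p was below 0.05 in 4.7%. The 30 pairs of daughters within a group gave chi-square values, per degree of freedom, from 23.2 up to 87.5, so none was a copy.

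Replicates are numbered in accession order. The comparison, the gene groups and the tests were chosen with earlier results of these data known. The named genes are the 2 higher and 2 lower with the smallest p, at least 1 CPM in a group of daughters and whole counts. DESeq2 1.42.0 and limma 3.58.1 served as alternatives, with other filters, scalings and single animals left out.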

Additional observations from a re-analysis of the deposited data

Results flagged for a closer look

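For the 4 named genes the ozone difference passed the interaction test between daughters and sons (edgeR adjusted p = 0.0306, 0.0306, 0.0306 and 0.0238), as did 10.6% of all genes. The 4 had been picked for a small p in daughters, and the same values enter the interaction. Daughters minus sons, the log2 difference was 1.04 for ENSRNOG00000016980, 1.63 for ENSRNOG00000060448, −1.36 for ENSRNOG00000024322 and −1.99 for ENSRNOG00000020058. Without air daughter 2 the differences were 0.88, 1.45, −1.29 and −1.66 and the 4 calls were lost; they were also lost in either library-name style alone.

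In 6 of 34 groups of values, 1 animal lay far from the others. The rule used flags about 1 group in 20 when values are independent and normally distributed. The groups here share animals and genes, so no excess over that rate can be read from these numbers. Ozone daughter 4 had 230.0 genes at least 2-fold above the air range, with the next ozone daughter at 79.5, and 229.3 below it, with the next at 69.7. Ozone son 4 lay at 12.35 on component 1 of the daughters, with the next ozone son at −20.4, and at −1.05 on the score of genes called in sons, with the next at −0.04. Air son 1 had a score of −1.26, with the next air son at −1.76. The same animal had 39.4 CPM of ENSRNOG00000024322, with the next air son at 23.7 CPM.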

How the results depend on the processing

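The number of genes past the adjusted threshold in daughters was 0 in each alternative fit other than DESeq2, which called 4. At an unadjusted p below 0.05 the numbers of higher and lower genes were 384 and 405 with daughters fitted alone, 247 and 370 in style 1, and 402 and 248 in style 2, so lower genes were the more numerous in the first 2 of these fits; a fit of 1 style assumes that its lone daughter varies like the other groups. With single daughters left out these numbers ranged from 466 to 1188 and from 278 to 944. Among genes called in sons, the numbers lower and higher in daughters were 183 and 377 without the style term and 41 and 46 in separate fits, with the shares given above. With lists at an adjusted p below 0.01 in sons (77 and 23 genes) they were 4 (5.19%, against 3.87% of all genes) and 7 (30.4%, against 6.24%). The medians of these lists were −0.07 and 0.29, with 55.8% and 91.3% on the opposite side. With single animals left out the numbers ranged from 5 (6.58%, against 3.45% of all genes) to 230 (24.9%, against 7.41%) and from 9 (28.1%, against 5.21%) to 348 (23.2%, against 6.06%). The medians ranged from −0.28 to −0.09 and from 0.20 to 0.36. Leaving out sons was added after the data were seen. The difference on component 1 ranged from 22.6 to 35.8 with single daughters left out, and passed the threshold only without ozone daughter 6. The spread difference kept its direction and was not called in 15 of 15 alternatives. The cause of these changes was not tested. No paired analysis was possible because the labels give no numbers shared between the groups. Depth limits genes such as ENSRNOG00000060448, with 6 to 25 counts per daughter.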

Other observations

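Component 2 of the daughters held 11.4% of the variance and set ozone replicates 1 and 2 apart, at 32.1 and 29.4, with the highest air daughter at 7.0; the other ozone daughters lay between −12.8 and 4.9. Its difference of means was 11.0 (exact permutation, two-sided, p = 0.281, n = 6 and 6; within styles exact p = 0.194). The 2 animals belong to different library-name styles.

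The genes with the most extreme weights on component 1 were read in sons. The 200 genes with the highest weights had a median log2 difference of −0.79 between ozone and air sons, and 37 fell and 3 rose in ozone sons (edgeR adjusted p below 0.05). The 200 with the lowest weights had a median of 0.88 in sons, and 68 rose and 0 fell. In all genes tested 7.24% rose and 5.75% fell in sons. These 2 groups were chosen after the data were seen, on the daughters alone. The differences in sons come from the shared model, whose style term both sexes have in common.

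Of the 12792 genes tested, 4544 had fractional counts in at least 1 library, and 12% of these were at an unadjusted p below 0.05 in daughters, against 9.04% of the 8248 genes with whole counts.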
